A study of Mus musculus with 38 samples.

Results

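The comparison described here was between omental tumors of vehicle-treated mice bearing the 60577 model, collected on day 42 after cell injection (TP2, 3 tumors) or on day 36 (TP1, 3 tumors). These 6 control tumors were taken by their group labels from 38 samples in the series. 60577 is a transplantable mouse line used as a model of high-grade serous ovarian cancer, and its cells had been injected into the peritoneal cavity of female FVB mice aged 8 to 9 weeks, after which tumors grew on the omentum, the fatty apron of the abdomen. The controls received the drug vehicle once a week for 3 weeks from day 21, so that TP1 lay 1 day and TP2 7 days after the last injection, and 6 more days of growth and 6 more days without vehicle cannot be told apart. Treated 60577 tumors (carboplatin 20 mg/kg with paclitaxel 10 mg/kg on the same days, 3 at TP1 and 4 at TP2) and control tumors of a second model, HGS2 in C57BL/6J mice (3 on day 64 and 4 on day 70), served as comparisons.

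A growing solid tumor can outpace its blood supply, and cells far from a vessel respond to low oxygen by switching on genes for glycolysis, glucose uptake and vessel growth under control of hypoxia-inducible factors. The omentum also carries fat, mesothelium, macrophages and lymphoid clusters, and in the mouse it lies against the pancreas, whose acinar cells fill their cytoplasm with transcripts for digestive enzymes. A piece of tissue taken as a tumor can therefore hold neighbors of the cancer cells in amounts that differ from animal to animal.

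The 6 libraries held 22314660 to 31177745 counts each. Keratin genes of the epithelial list were present in all 6 tumors, with Krt8 between 400 and 766 CPM (counts scaled to library size, with TMM factors) and Krt19 between 524 and 1065 CPM. So were Wt1 (394 to 467 CPM) and Upk3b (1184 to 1546 CPM) of the mesothelial list. The cultured 60577 cells held both as well, Wt1 at 380 CPM and Upk3b at 1918 CPM. These genes therefore do not tell mesothelium from tumor cells here. Pax8, a marker of fallopian tube epithelium, stood at no more than 1.01 CPM, and the adipocyte hormone gene Adipoq at no more than 1.18 CPM. The TP1 tumors were close to each other in log2 CPM over 16241 genes (mean distance 0.0150, as 1 minus Pearson's r, range 0.00978 to 0.0187 over 3 pairs). The TP2 tumors were farther apart (mean 0.0428, range 0.0246 to 0.0551 over 3 pairs) than tumors of different time points were (mean 0.0340, range 0.0211 to 0.0489 over 9 pairs). TP2 control 2 had high hypoxia genes and low markers of vessels and of several other host cell types. TP2 control 1 had pancreatic transcripts and a large share of 7SL-type RNA (14.9% of counts in the miscellaneous RNA class against 3.61 to 5.96% in the other 5 libraries). The part of these genes in the distances was not tested.

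No gene was called between the time points. A gene was called when its Benjamini-Hochberg adjusted p in edgeR's quasi-likelihood test was under 0.05 and its log2 fold change was beyond 1 in either direction, and 0 of 16241 genes met this (0%), with a smallest adjusted p of 0.207. Without adjustment, 1501 genes had p under 0.05, of which 709 were higher at TP2 (4.37% of those tested) and 792 lower (4.88%). In 1619 genes all 3 TP2 tumors lay above all 3 TP1 tumors (9.97%), and in 1577 genes all lay below (9.71%). The DESeq2 Wald test called 70 of 16211 genes (0.432%), 51 of them higher at TP2 and 23 of them in the acinar and Reg lists described next, and limma-voom called 0 with 1402 genes at an unadjusted p under 0.05. In counts simulated for this comparison over 16241 genes, edgeR gave an adjusted p under 0.05 to 66 of 100 genes changed by 1 on the log2 scale. Of those changed by 2 it found 95 of 100. The fold change rule was not applied there, and only genes with a mean above 100 counts were changed. Every simulated group had the same spread, so recovery among the uneven TP2 tumors may be lower.

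The largest differences were in pancreatic acinar genes, and they came from 2 of the 3 TP2 tumors. Summed over the 28 genes of the acinar list, the level was 14.0, 10.5 and 9.36 CPM in TP1 controls 1 to 3, and 2849, 18.5 and 459 CPM in TP2 controls 1 to 3. TP2 control 2 therefore sat beside the TP1 tumors, while TP2 controls 1 and 3 stood far above all of them, so that the signal was not limited to a single tumor. Ctrb1, which encodes chymotrypsinogen, was at 0, 0.0419 and 0 CPM at TP1 and at 366, 0.134 and 93.6 CPM at TP2. Cpa1, for a carboxypeptidase, was at 0, 0.0839 and 0.0347 CPM at TP1 and at 184, 0.101 and 26.3 CPM at TP2. Pnlip, for pancreatic lipase, was at 0.0369, 0.126 and 0.104 CPM at TP1 and at 194, 0.370 and 27.0 CPM at TP2. In each of these genes TP2 controls 1 and 3 were the 2 highest libraries.

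The upstream sequences of acinar genes are shown because these genes were high and low together across the 6 tumors. Acinar enzyme genes are known to be driven by a factor complex that reads an E-box (CANNTG) near a TC-box (TTTCCC). Of 28 listed genes 22 had an entry in RefSeq's promoter table (GRCm38.p6), and 8 of these 22 (36.4%) held both motifs within 250 bases before the start, on either strand, against 14.1% of all 27025 windows of that length. The E-box alone was in 18 of 22 (81.8%, against 66% of all windows) and the TC-box alone in 8 of 22 (36.4%, against 21.9%). These windows are those of the 3 genes with the lowest p that held both, 5′ to 3′ on the gene's strand, with both motifs in capitals.
Cpa1 (chr6:30638968-30639217, plus strand): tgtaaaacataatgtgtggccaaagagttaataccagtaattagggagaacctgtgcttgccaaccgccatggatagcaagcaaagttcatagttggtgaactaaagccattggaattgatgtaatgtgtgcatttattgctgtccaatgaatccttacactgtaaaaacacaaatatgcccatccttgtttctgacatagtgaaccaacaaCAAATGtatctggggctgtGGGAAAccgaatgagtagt
Ctrb1 (chr8:111691011-111691260, minus strand): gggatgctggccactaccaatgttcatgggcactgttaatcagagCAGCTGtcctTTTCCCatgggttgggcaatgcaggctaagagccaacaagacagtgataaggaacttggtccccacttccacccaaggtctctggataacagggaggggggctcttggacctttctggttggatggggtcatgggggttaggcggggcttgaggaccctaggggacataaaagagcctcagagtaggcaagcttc
Prss2 (chr6:41521526-41521775, plus strand): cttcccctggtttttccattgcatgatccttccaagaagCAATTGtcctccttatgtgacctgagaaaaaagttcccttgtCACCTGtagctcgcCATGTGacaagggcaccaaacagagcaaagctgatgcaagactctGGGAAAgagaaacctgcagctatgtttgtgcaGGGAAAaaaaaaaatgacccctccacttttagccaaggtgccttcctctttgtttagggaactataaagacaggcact
The match of letters is a description of the sequence and no evidence of binding.

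**Figure D1:**
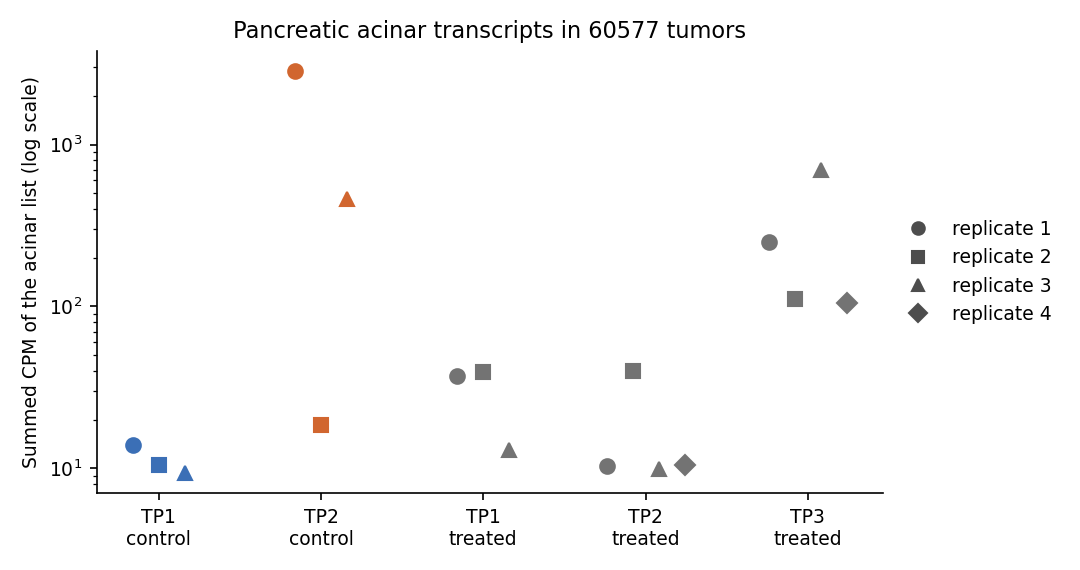
Summed CPM of the 28 acinar genes in each 60577 tumor, on a log axis, by group (points are single tumors, marker shapes are replicate numbers). TP2 controls 1 and 3 stand at 2849 and 459 CPM, and TP2 control 2, at 18.5 CPM, lies near the TP1 controls, at 9.36 to 14.0 CPM.

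All 23 tested acinar genes had an unadjusted p under 0.05 in the direction of TP2, beside 4.37% of all genes, and none was called, with a smallest adjusted p of 0.211. In 17 of the 23 every TP1 library held 3 counts or fewer, so a fitted fold change has no firm base. Those 17 passed the filter of 1 CPM through tumors other than the TP1 controls, so a lower level at TP2 could hardly be seen. The list was high as a whole in TP2 controls 1 and 3, so its members are not independent results. With these genes set to a floor of 3 counts per TP1 library, the list's median log2 difference was 7.35 in place of the fitted 9.73, beside 0.03 over all genes. Without TP2 control 2, edgeR called 36 genes (0.222%), 35 of them higher at TP2, and 24 of the 36 belonged to the acinar list or the list of Reg genes, whose products are secreted by acinar cells. In bulk tissue more cells of a type and more RNA per cell cannot be told apart.

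Other secretory pancreas genes followed the same 2 tumors. Dmbt1, for a secreted scavenger glycoprotein, stood at 0.332, 1.43 and 0.971 CPM at TP1 and at 611, 1.75 and 105 CPM at TP2. Reg1 was at 0 in every TP1 library and in TP2 control 2, at 29.5 CPM in TP2 control 1 and at 5.85 CPM in TP2 control 3. Rbpjl, a transcription factor of acinar cells, was at 98.6 CPM in TP2 control 1 and 2.97 CPM in TP2 control 3, against at most 0.134 CPM in the other 4 tumors. The amylase genes Amy2a2, Amy2a3 and Amy2a4 had identical values (131 CPM in TP2 control 1 and 4.10 CPM in TP2 control 3), and reads of these near-identical copies cannot be placed with certainty. The islet hormone genes did not move with them: Ins1, Sst and Ppy had 0 counts in all 6 libraries, Ins2 was at no more than 0.243 CPM and Gcg at no more than 0.175 CPM.

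Among the remaining 60577 tumors, the acinar sum was 12.9 to 39.4 CPM in the TP1 treated group, 9.97 to 40.2 CPM in the TP2 treated group and 105 to 696 CPM in the TP3 treated group. The TP3 treated tumors thus lay between the low libraries and TP2 control 1. The HGS2 control tumors ranged from 10.8 to 98153 CPM at TP1 and from 10.9 to 202324 CPM at TP2, so that the groups overlapped. By an exact two-sided permutation test on log2 sums, the 60577 controls gave p = 0.1, the smallest that 3 tumors against 3 allow.

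Other genes were higher in all 3 TP2 tumors. The genes named next were chosen after their values were seen, from genes whose groups did not overlap and that did not meet the rule for genes raised in a single tumor. Rgs1, a regulator of G-protein signaling in leukocytes, had the lowest p of these and stood at 3.17, 3.65 and 3.50 CPM at TP1 and at 11.1, 28.5 and 12.1 CPM at TP2. Every TP2 tumor was above every TP1 tumor (log2 difference 2.33 ± 0.39 SE, edgeR adjusted p = 0.207), the cultured 60577 cells held 0 CPM, and the treated tumors differed by -0.29 ± 0.34. Rgs1 was called by DESeq2 (adjusted p = 3.87e-06) and by edgeR without TP2 control 2 (adjusted p = 0.0473).

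Some of these genes are known from macrophages. Abcg1, a cholesterol exporter, was at 16.2, 24.1 and 21.5 CPM at TP1 and at 34.9, 29.7 and 38.8 CPM at TP2 (0.74 ± 0.15 SE, edgeR adjusted p = 0.211). F13a1, a transglutaminase made by resident macrophages, was at 38.2, 40.4 and 40.7 CPM and then at 75.7, 101 and 57.2 CPM (0.97 ± 0.24, edgeR adjusted p = 0.267). Chil3, a product of alternatively activated macrophages, was at 0.332, 3.27 and 1.39 CPM and then at 5.14, 11.2 and 7.16 CPM. Mmp12, the macrophage elastase, was at 3.98, 16 and 12.9 CPM and then at 19.2, 78.1 and 35.5 CPM. The chemokine gene Ccl6 followed the same order, at 16.1, 29.4 and 35 CPM and then at 61.3, 175 and 39.4 CPM. These 5 genes had no overlap between the time points, but the macrophage list as a whole did not share this. Of its 15 tested members 4 had p under 0.05, all higher at TP2 (beside 4.37% of all genes), 1 did not overlap (beside 9.97%), and the median log2 difference was 0.53 beside 0.03 over all genes. Csf1r, the receptor that defines the lineage, was at 161, 298 and 248 CPM at TP1 and at 326, 145 and 275 CPM at TP2.

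Ppp4r4, a regulatory subunit gene of protein phosphatase 4, was near 0 at TP1 (0.0369, 0.126 and 0.0694 CPM) and stood at 1.05, 0.403 and 0.437 CPM at TP2. Rragd, a small GTPase of the amino acid sensing pathway, was at 1.70, 0.964 and 1.46 CPM at TP1 and at 3.32, 5.71 and 3.06 CPM at TP2 (1.55 ± 0.33 SE, edgeR adjusted p = 0.211). Trib3, a pseudokinase of the integrated stress response, was at 8.33, 6.21 and 7.87 CPM and then at 10.6, 33.6 and 9.78 CPM. Of the 16 genes of the integrated and ER stress list 2 had p under 0.05 and were higher (beside 4.37%) and 1 did not overlap (beside 9.97%), with a median log2 difference of 0.30. Hmga1, a chromatin protein, was at 17.5, 18.2 and 19.6 CPM and then at 30.7, 78.1 and 23.5 CPM, and TP2 control 2 was by far the highest for this gene and for Trib3. Samm50, of the outer mitochondrial membrane sorting machinery, differed little but evenly, at 82.6, 85.2 and 87.7 CPM and then at 116, 107 and 99.1 CPM (0.33 ± 0.08). The nuclear genes of the respiratory chain also sat slightly higher at TP2: 10 of 20 did not overlap, all in this direction, beside 9.97% of all genes, although none had an unadjusted p under 0.05 and the median log2 difference was 0.20. The most abundant members, the ATP synthase genes Atp5b (505, 463 and 493 CPM against 650.3, 574 and 470.1) and Atp5a1 (341, 293 and 293 CPM against 364, 386 and 314), overlapped.

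Genes lower in all 3 TP2 tumors were chosen likewise after their values were seen. Nsun7, a putative RNA methyltransferase, was at 1.03, 1.01 and 0.832 CPM at TP1 and at 0.245, 0.269 and 0.175 CPM at TP2 (-2.02 ± 0.37 SE, edgeR adjusted p = 0.211). Serpinc1, the gene for antithrombin, was at 3.43, 3.56 and 3.26 CPM and then at 1.08, 1.38 and 1.13 CPM (-1.51 ± 0.36, edgeR adjusted p = 0.252). Bmp2, a growth factor of the TGF-beta family, was at 18.3, 19 and 14.7 CPM and then at 10.7, 8.57 and 11.3 CPM (-0.76 ± 0.19, edgeR adjusted p = 0.267). In all 3 genes every TP2 tumor lay below every TP1 tumor. Fgf16, a fibroblast growth factor, was at 1.03, 1.64 and 1.32 CPM and then at 0.315, 0.269 and 0.786 CPM. Kcnt2, a potassium channel gene, was at 5.38, 3.27 and 2.71 CPM and then at 1.78, 1.55 and 1.40 CPM. Pcdh19, a cell adhesion gene, was at 83.5, 68.9 and 62.3 CPM and then at 47.1, 47.4 and 53.7 CPM. DESeq2 called Nsun7 (adjusted p = 0.0108), Serpinc1 (0.0201), Kcnt2 (0.0122) and Fgf16 (0.0379), and edgeR called none of the 4 under the alternatives run.

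**Figure D2:**
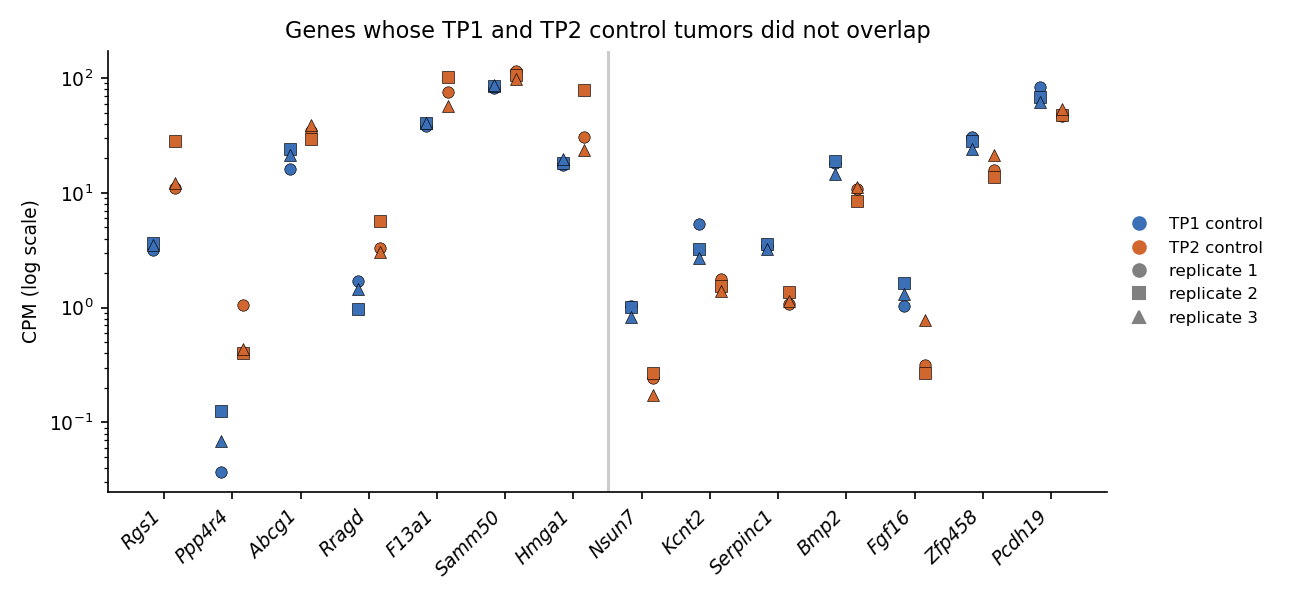
CPM of 14 genes in the 6 control tumors, on a log axis (TP1 in blue, TP2 in orange, marker shapes are replicate numbers). To the left of the line TP2 lies above TP1 in every tumor, as for Rgs1 at 11.1 to 28.5 against 3.17 to 3.65 CPM, and to the right below, as for Nsun7 at 0.175 to 0.269 against 0.832 to 1.03 CPM.

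Zinc finger genes were frequent among the lower genes, with Zfp458 at 30.4, 28.1 and 24.2 CPM at TP1 and at 15.7, 13.8 and 21.4 CPM at TP2. This group was also defined after the values were seen. Of 329 protein coding genes with a Zfp symbol, 26 had p under 0.05 and were lower (7.90%) and 5 were higher, and their median log2 difference was -0.08. Among the other 13597 protein coding genes 235 were lower (1.73%) and 670 higher, with a median of 0.06.

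A broad difference lay in transcripts of the TEC and sense intronic annotation classes, called the intronic classes below for short. Whether each transcript lies within an intron was not checked. Of 1077 tested genes of the classes TEC (provisional, mostly single-exon models) and sense intronic, 427 had an unadjusted p under 0.05 and were lower at TP2 (39.6%, beside 4.88% of all genes) and 1 was higher. In 519 of them all 3 TP2 tumors lay below all 3 TP1 tumors (48.2%, beside 9.71% of all genes). The median log2 difference was -0.51 against 0.05 for 13926 protein coding genes. None was called by edgeR, while 13 of the 70 genes called by DESeq2 belonged to these classes. As shares of all counts, the classes took 0.581, 0.556 and 0.498% at TP1 and 0.314, 0.348 and 0.422% at TP2. The groups did not overlap (0.545 ± 0.042% against 0.361 ± 0.055%, SD, n = 3 each, exact two-sided permutation p = 0.1, the smallest possible). These classes were not among the gene lists, so their choice may follow from the values themselves and the p is no independent test.

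Most of these transcripts share a place with a larger gene. Of the 1077, 910 (84.5%) lay within the bounds of a protein coding gene on the same strand, and 898 had exactly 1 tested host, 590 hosts in all. The intronic transcripts had a median log2 difference of -0.53 and their hosts one of -0.02. The transcript was lower than its host in 859 of 898 pairs (95.7%). Of the hosts themselves, 20 had p under 0.05 and were lower and 13 were higher. The examples given here are those with the lowest p, chosen after the values were seen. Gm37006 (GRCm38, chr2:14707665-14710338, plus strand), within Cacnb2, was at 1.44, 1.09 and 0.798 CPM at TP1 and at 0.280, 0.336 and 0.262 CPM at TP2 (-1.90 ± 0.31 SE, edgeR adjusted p = 0.207), and Cacnb2 differed by -0.61 ± 0.34. Gm44416 (chr6:87171944-87174009, minus strand), within Antxr1, was at 2.06, 2.14 and 2.39 CPM and then at 0.944, 0.538 and 0.873 CPM, and Antxr1 differed by -0.19 ± 0.30. Gm19514 (chr7:134095790-134100278, minus strand), within the metalloprotease gene Adam12, was at 4.28, 5.70 and 4.51 CPM and then at 2.17, 2.02 and 2.53 CPM, and Adam12 differed by -0.27 ± 0.26.

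The lower intronic level was seen in each TP2 tumor. Relative to the TP1 mean, the median shift was -0.58, -0.58 and -0.34 in TP2 controls 1 to 3, against -0.09 to 0.06 in the TP1 tumors. The long nuclear RNA Malat1 lay in the same order, at 27927, 26332 and 24605 CPM at TP1 and at 19341, 20105 and 23241 CPM at TP2 (-0.33 ± 0.25 SE, edgeR adjusted p = 0.699). Its list of small non-coding and nuclear RNA did not share this. Of 8 tested genes 1 was lower without overlap, beside 9.71% of all genes, and the median log2 difference was 0.08. Protein coding genes differed slightly with their span in the genome, from a median log2 difference of 0.11 in the 25% of genes with the shortest span to -0.003 in the 25% with the longest. 

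**Figure D3:**
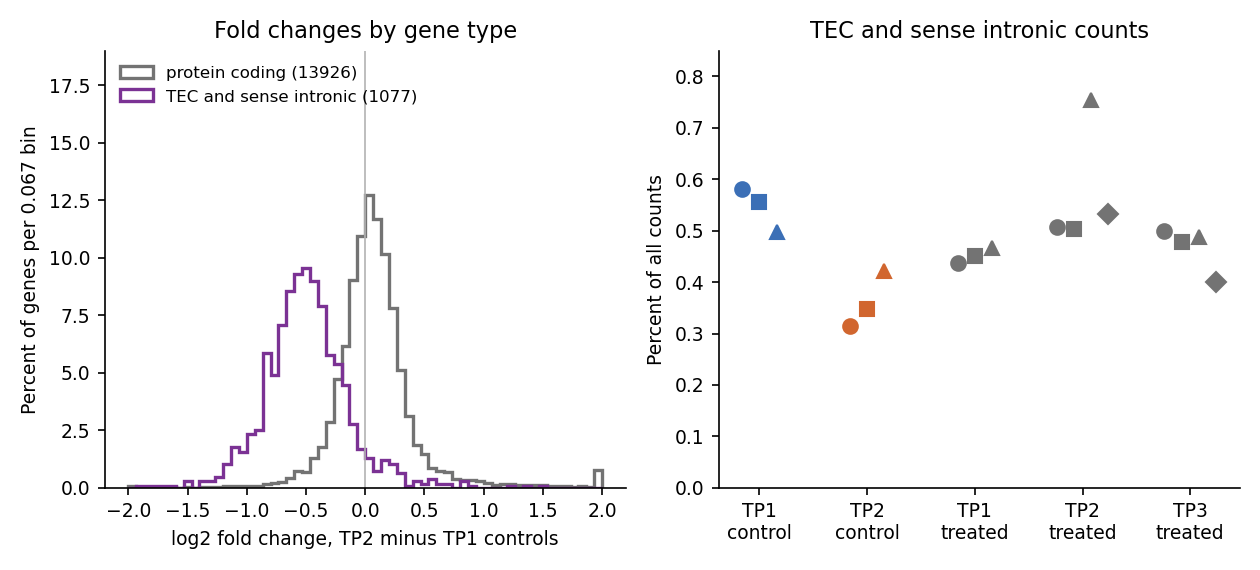
Left, distribution of the log2 fold change (TP2 minus TP1 controls) for 13926 protein coding genes and 1077 TEC and sense intronic genes, in percent of each class, with values beyond 2 drawn at 2. Right, percent of all counts in the TEC and sense intronic classes in each 60577 tumor by group. The intronic classes are shifted to a median of -0.51, and the TP2 controls (0.314 to 0.422%) lie below the TP1 controls (0.498 to 0.581%).

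In the treated tumors the intronic share went the other way, at 0.437 to 0.466% at TP1 and 0.503 to 0.755% at TP2 (exact two-sided permutation p = 0.0857, n = 3 and 4). TP2 treated 3, which held the 0.755%, and TP2 treated 4 stood apart, with mitochondrial shares of 0.399 and 0.360% of counts against 0.923 to 1.54% in the other 5, and miscellaneous RNA at 20.3 and 27.4% against 8.49 to 16%, and the part of these in the result was not tested. In the 6 controls the mitochondrial share was 0.915 to 1.19% at TP1 and 0.833 to 1.08% at TP2. The HGS2 controls overlapped, at 0.290 to 0.361% and 0.275 to 0.401% (exact two-sided permutation p = 0.457, n = 3 and 4). In the test of the difference between control and treated 60577 tumors, 195 of the 1077 transcripts were called as lower in the controls' change and 4 as higher, beside 582 and 547 of all 16241 genes.

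Hypoxia genes were high in a single tumor, TP2 control 2. Slc2a1, the glucose transporter GLUT1, was at 76.5, 85.9 and 87.3 CPM at TP1 and at 94.0, 412 and 67.3 CPM at TP2. Adm, for the vasodilator peptide adrenomedullin, was at 4.98, 3.48 and 3.23 CPM and then at 5.81, 29.6 and 3.40 CPM. Vegfa, the main vessel growth factor, was at 456, 351 and 421 CPM and then at 392, 1229 and 355 CPM. TP2 controls 1 and 3 lay within or close to the TP1 range for all 3 genes. Summed over the 16 genes of the hypoxia list, TP2 control 2 held 5531 CPM and the other 5 tumors 1723 to 1912 CPM. Of the 16 genes, 7 had p under 0.05 and were higher (beside 4.37% of all genes) and 1 (Bnip3) did not overlap (beside 9.97%). The list's median log2 difference of 0.68 became -0.02 without TP2 control 2. The glycolysis list followed it, at 19101 CPM against 6675 to 8294 CPM, with Gapdh at 3784 CPM against 1116 to 1477 CPM in the others. Its median of 0.59 became 0.07 without that tumor.

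Windows before the start of 2 hypoxia genes are shown because the list is known for a shared element. Hypoxia-inducible factors bind the letters ACGTG or GCGTG, and 13 of 14 matched genes (92.9%) held at least 1 of these in the 250 bases before the start, on either strand, against 38.6% of all 27025 windows. The windows of Adm and Slc2a1 are given, which had the lowest p among the matched list members holding the letters. They run 5′ to 3′ on the gene's strand with the letters in capitals (CACGC and CACGT are the same letters read from the other strand).
Adm (chr7:110627407-110627656, plus strand): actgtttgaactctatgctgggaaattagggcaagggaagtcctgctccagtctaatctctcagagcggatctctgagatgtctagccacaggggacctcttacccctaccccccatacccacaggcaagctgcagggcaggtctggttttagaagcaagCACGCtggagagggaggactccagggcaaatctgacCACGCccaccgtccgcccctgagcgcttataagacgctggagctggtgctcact
Slc2a1 (chr4:119108495-119108744, plus strand): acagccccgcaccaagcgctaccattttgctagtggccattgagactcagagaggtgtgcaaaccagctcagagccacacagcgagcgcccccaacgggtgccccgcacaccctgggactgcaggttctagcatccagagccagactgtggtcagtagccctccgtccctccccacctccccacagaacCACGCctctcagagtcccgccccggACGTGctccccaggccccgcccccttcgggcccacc
Adm held 2 such matches and Slc2a1 2.

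The same tumor was poor in vessel markers. Cdh5, the cadherin of endothelial junctions, was at 15.9, 18.5 and 25.1 CPM at TP1 and at 54.0, 0.706 and 25.8 CPM at TP2. Kdr, the main VEGF receptor, was at 129, 154 and 186 CPM and then at 171, 30.7 and 199 CPM. Rgs5, a pericyte marker, was at 51.6, 49.6 and 50.6 CPM and then at 116, 1.68 and 70.7 CPM. In each case TP2 control 2 was the lowest library, and for Cdh5 and Rgs5 TP2 control 1 was the highest. The median shift of the 14 endothelial genes from the TP1 mean was 1.38, -3.02 and 0.49 in TP2 controls 1 to 3, and -0.28 to 0.25 in the TP1 tumors. None of the 14 genes differed with p under 0.05, and Flt1, at 175 to 232 CPM, did not share the low level in TP2 control 2 (232 CPM). Genes of MHC class II presentation were lowest in the same tumor, with Cd74 at 481 CPM against 999.7 to 2186 CPM in the others. So were the medians of the pericyte (-0.97), fibroblast (-0.61), T cell (-1.43), plasma cell (-1.35) and adipocyte (-1.10) lists, as shifts from the TP1 mean. The macrophage (0.14) and neutrophil (1.85) medians were not low, and the epithelial median was the highest (0.54).

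Further genes were highest in TP2 control 2. By the rule of a gap of at least 2 in log2 CPM between the highest and the second highest of the 6 tumors, 122 genes were raised in a single tumor (0.751%), and 46 of these were highest in TP2 control 2. Those with the widest gaps among named protein coding genes were Hcar2 (79.0 CPM against at most 3.15 in the others), Cxcl2 (31.8 against 1.68), Nos2 (77.6 against 6.33), Ccl3 (10.8 against 0.832) and Inhba (145 against 13.3). Nos2 makes nitric oxide in activated macrophages, Cxcl2 and Ccl3 are chemokines that draw neutrophils and monocytes, and Inhba encodes an activin subunit. The lists these genes belong to did not move together in this tumor: its median shift from the TP1 mean was 0.80 for 12 tested inflammatory cytokine genes and -0.28 for 26 tested chemokine genes, against 0.11 and 0.74 in TP2 control 1. Arg1, the arginase of suppressive macrophages, was at 696 CPM there and at 54.6 to 144 CPM in the others. The neutrophil genes S100a8 and S100a9 stood at 6.96 and 8.53 CPM in this tumor and at 0.922 to 2.84 and 0.959 to 3.01 CPM in the others.

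The other 5 tumors also had genes that met this rule. TP2 control 1 had 56 genes raised in it, of which 20 belonged to the acinar and Reg lists. The widest gaps among protein coding genes were in Rbpjl, the amylase copies Amy2a2, Amy2a3 and Amy2a4, and Pdia2, a disulfide isomerase of the pancreas, at 80.3 CPM against at most 2.49 CPM. This set included genes that were also raised, to a lesser degree, in TP2 control 3. TP2 control 3 had 12, of which 10 were immunoglobulin genes. TP1 control 1 had 4, among them Ptn, for the growth factor pleiotrophin, at 17 CPM against 0.605 to 1.72, and Nap1l3, at 2.25 CPM against at most 0.490. The non-coding transcript Pvt1, from next to the Myc oncogene, was at 112 CPM against 10.1 to 17.5 CPM, and Myc itself at 105 CPM against 46.5 to 95.4 CPM. TP1 control 2 had 1 such gene and TP1 control 3 had 3, all immunoglobulin genes.

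**Figure D4:**
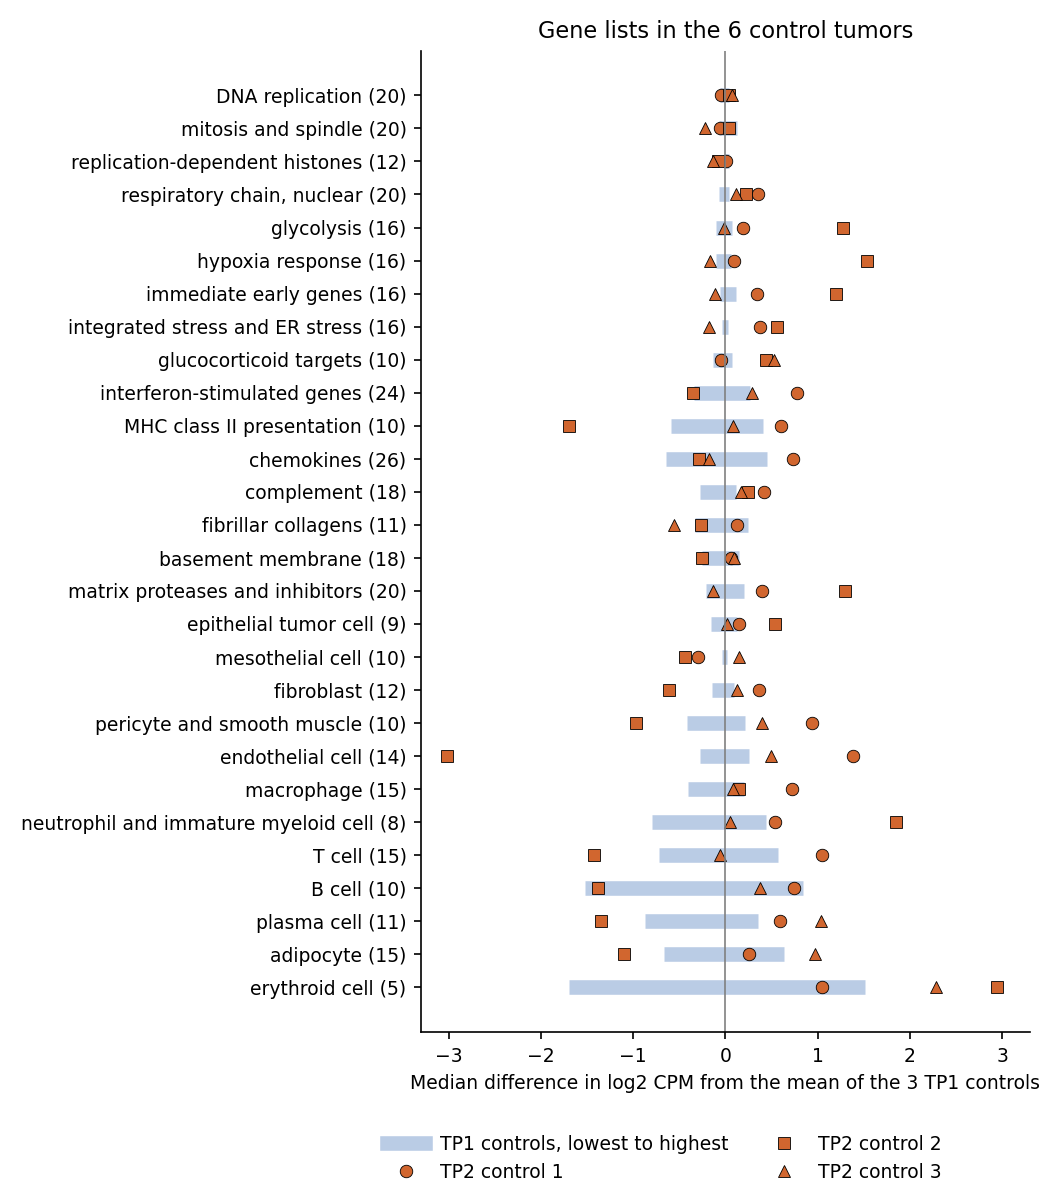
Median difference in log2 CPM of each gene list from the mean of the 3 TP1 controls (number of tested genes in parentheses). Blue bars span the 3 TP1 tumors and orange markers are the 3 TP2 tumors. TP2 control 2 lies apart for hypoxia (1.53), glycolysis (1.28) and endothelial (-3.02) genes, while the replication and mitosis lists stay close to 0 in all.

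Proliferation genes differed little over the 6 days. The median log2 difference was 0.03 for 20 genes of DNA replication and -0.09 for 20 genes of mitosis, beside 0.03 over all genes. Mcm2, a subunit of the replicative helicase, was at 188, 205 and 207 CPM at TP1 and at 203, 202 and 219 CPM at TP2. Mki67, a proliferation marker, was at 303, 291 and 355 CPM and then at 278, 259 and 259 CPM, with every TP2 tumor below TP1 (-0.25 ± 0.16 SE, edgeR adjusted p = 0.646). Of the mitosis genes 5 of 20 lay lower without overlap, beside 9.71% of all genes, and 2 had p under 0.05.

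Matrix genes did not separate the time points. Col1a1, the main fibrillar collagen chain, was at 2224, 3896 and 4241 CPM at TP1 and at 3637, 2761 and 2248 CPM at TP2 (-0.26 ± 0.29 SE, edgeR adjusted p = 0.80). Fn1, fibronectin, was at 6061, 7449 and 8932 CPM and then at 7732, 14245 and 7355 CPM (0.39 ± 0.30, edgeR adjusted p = 0.707). Vcan, the proteoglycan versican, was at 94.4, 156 and 192 CPM and then at 170, 154 and 89.8 CPM, and Lox, which crosslinks collagen, at 216, 264 and 281 CPM and then at 255, 408 and 194 CPM. The groups overlapped for all 4. Of 11 fibrillar collagen genes 2 were lower without overlap, beside 9.71% of all genes, namely Col11a1 (7.37, 3.44 and 6.35 CPM against 3.01, 0.874 and 2.88) and Col27a1, and the median was -0.22. Among 20 tested proteases and their inhibitors the median was 0.71, of which 0.13 remained without TP2 control 2.

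Lymphocyte and blood genes varied within both groups. The T cell list (median 0.09) and the B cell list (-0.09) had no gene with p under 0.05, and their summed levels ranged from 21 to 64.3 CPM and from 6.64 to 36.1 CPM over the 6 tumors. The interferon-stimulated list had none of 24, with a median of 0.20. Globin transcripts, a sign of blood in the tissue, varied widely, with Hbb-bs at 8.70, 34.6 and 73.8 CPM and then at 60.5, 200 and 127 CPM. The groups overlapped for Hbb-bs, and 3 of 5 tested erythroid genes had p under 0.05 and were higher, beside 4.37% of all genes.

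In HGS2 controls the same interval gave 0 called genes (0%) and 569 genes at an unadjusted p under 0.05 by edgeR, 0 by limma-voom and 7 by DESeq2. The difference between the models was called for 0 genes (0%) by edgeR, with 1272 at an unadjusted p under 0.05, and for 0 by limma-voom. Rgs1 differed by -0.16 ± 0.70 SE in HGS2 and Abcg1 by -0.58 ± 0.27. The median log2 difference of the intronic classes was 0.12 in HGS2.

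In treated 60577 tumors edgeR called 977 genes between TP1 and TP2 (6.02%), and the change differed between control and treated tumors for 1129 genes (6.95%), 547 with a higher and 582 with a lower change in the controls. The middle 50% of genes lay between -0.15 and 0.19 in the controls and between -0.27 and 0.36 in the treated tumors. The genes with the lowest p were Sept3, a septin (-0.45 ± 0.17 SE in controls, 1.40 ± 0.16 in treated), Inhbb, an activin subunit (0.41 ± 0.14 and -1.10 ± 0.13), and Magi2, a junction scaffold (-0.42 ± 0.20 and 1.58 ± 0.19). Ahsg, for the plasma protein fetuin-A (1.00 ± 0.34 and -2.37 ± 0.34), and Pard3b, a polarity gene (-0.30 ± 0.20 and 1.63 ± 0.20), came next. For these 5 genes edgeR gave adjusted p-values of 0.00925 to 0.0113 for the difference.

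The values of Spp1, S100a8 and S100a9 in controls and treated tumors had opposite signs. Spp1, osteopontin, was at 92.8, 182 and 204 CPM at TP1 and at 214, 427 and 187 CPM at TP2 in the controls (0.79 ± 0.55 SE), against -4.16 ± 0.55 in the treated tumors, and the difference had an edgeR adjusted p of 0.0114. S100a8 differed by 1.19 ± 0.64 and -4.47 ± 0.67 (edgeR adjusted p = 0.0126), and S100a9 by 1.24 ± 0.61 and -4.33 ± 0.62 (edgeR adjusted p = 0.0113). Of the 16 glycolysis genes 13 were called in this test, of 20 matrix proteases and inhibitors 12, and of 26 chemokines 12, beside 6.95% of all genes. The control side of these genes and lists includes TP2 control 2, which was the highest control tumor for Spp1, S100a8 and S100a9. Without that tumor the test called 336 genes.

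**Figure D5:**
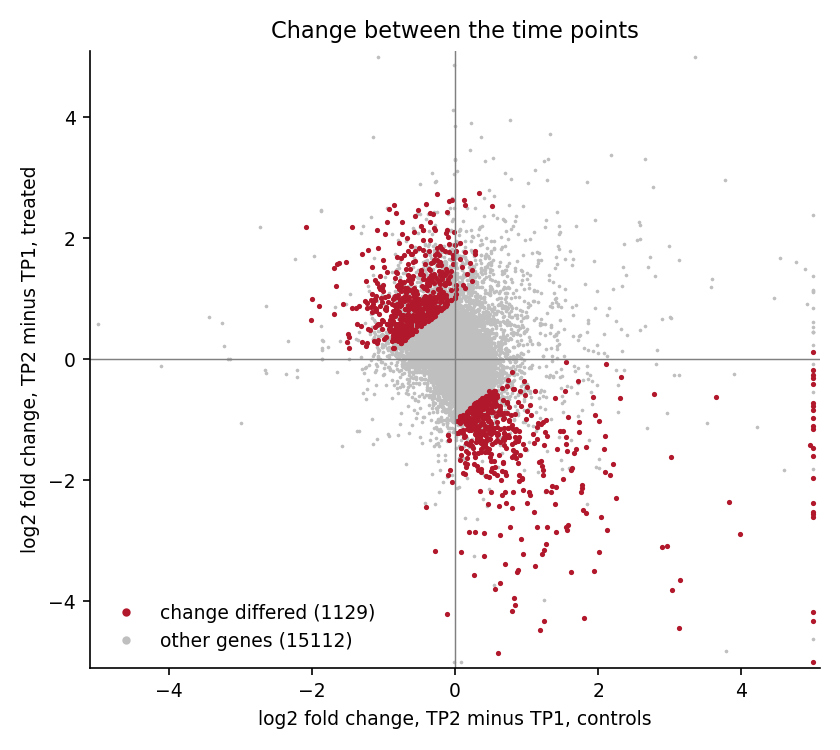
The log2 fold change between TP1 and TP2 of 16241 genes in controls (horizontal) and treated tumors (vertical), with values beyond 5 drawn at 5. The 1129 genes whose change differed (red) lie away from the diagonal by construction, and Spp1, for example, had a log2 fold change of 0.79 in controls and -4.16 in treated tumors.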

How the data were processed

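Omental tumors had been snap-frozen, and ribosomal RNA was removed before strand-specific paired-end sequencing. Per the labels, reads were trimmed with Trim Galore 0.6.5, aligned with STAR 2.7.0f and counted with RSEM on GRCm38. The authors deposited RSEM expected counts for 55487 genes, and 0 columns lacked a sample. Expected counts share reads among near-identical copies. Counts were rounded, and a gene was tested if 25% or more of 33 tumors reached 1 CPM (16241 genes). HGS2 TP3 treated replicate 1, which the study's own tables do not hold, was left out. The 17 tumors of 60577 (5 groups) were fitted in edgeR 4.0.16 (TMM scaling, quasi-likelihood test, R 4.3.3), with limma 3.58.1 and DESeq2 1.42.0 as alternatives, and log2 CPM used a prior count of 2. CPM values are on the TMM scale. Adjusted p-values are Benjamini-Hochberg over all tested genes. The SE of a fold change was derived from edgeR's F statistic, as the absolute log2 fold change over the square root of F. The test was checked on simulated counts.

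Depth was 22314660 to 31177745 counts a control library. Any 2 of the 6 differed by far more than sampling noise (chi-square per degree of freedom at least 10.4). Nothing said whether replicates shared a cage or day. The edgeR p-values of 60577 rest on the spread between tumors within groups, estimated over all 17 tumors of this model. On the 6 compared tumors alone the edgeR adjusted p of Rgs1 was 0.446, against 0.207. Gene names came from GENCODE M21. Gene lists (48 lists, 684 of 685 entries matched, 3 through synonyms) and the tumors compared were chosen with earlier results of these data known. Named genes were the 2 most abundant protein coding members of a list with no call, the 5 protein coding genes with the widest single-tumor gaps per tumor, the matrix, proliferation and myeloid genes Col1a1, Fn1, Vcan, Lox, Mki67, Adipoq, S100a8, S100a9 and Spp1, and the 5 lowest p-values of each difference test. All other genes given by name were chosen after their values were seen, and a few genes that the rule names are not reported here. Same-numbered control tumors showed no positive correlation of deviations (-0.33, -0.24 and -0.04), and no block was used. With 3 tumors a group this cannot exclude a shared day or cage, and the values cover the controls only. The treated comparison was added beside the planned ones. Alternatives were DESeq2 size factors, no filter, filterByExpr, limma-voom, a length and GC offset, a replicate block, the DESeq2 Wald test, only the compared groups, both models together and each tumor left out.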

Additional observations from a re-analysis of the deposited data

Results flagged for a closer look

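The change between the time points differed between control and treated 60577 tumors, by the test of the difference itself, for 1129 genes. The 5 with the lowest p gave control minus treated log2 differences of -1.84 for Sept3, 1.51 for Inhbb, -2.01 for Magi2, 3.38 for Ahsg and -1.94 for Pard3b. Groups of 3 were too small for a search for outlying tumors.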

How the results depend on the processing

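Between the control groups, edgeR called 0 genes with DESeq2 size factors, no filter, filterByExpr, a length and GC offset, only the 6 compared tumors or both models together, and limma-voom called 0. The DESeq2 Wald test called 70, of which 46 did not overlap, and 7 in HGS2. With each tumor left out the count ran from 0 to 36 for all calls and from 0 to 36 for those not overlapping among the tumors kept: 36 without TP2 control 2, 1 (Gm20458) without TP2 control 1 and 0 otherwise. In HGS2 it ran from 0 to 49 and for the difference between models from 0 to 225, both highest without HGS2 TP1 control 2. The replicate block left 0 calls in the 60577 controls, 0 in HGS2 and 0 for the difference between models. For the difference between control and treated tumors, 1129 calls became 556 with the replicate block and 259 with the block and the length and GC offset. That count ran from 144 to 2261 with each tumor left out, at 262, 379 and 716 without TP1 controls 1 to 3, 336 without TP2 control 2, 144 and 494 without TP1 treated 1 and 3, and 2261, 578 and 558 without TP2 treated 1, 3 and 4. Whether same-numbered tumors shared a day or cage is not known, so the lower counts under the block cannot be set aside. The median difference of the intronic classes stayed between -0.60 and -0.46 under the settings and omissions tried. Of 155 named genes 48 changed sign in at least 1 refit. Without TP2 control 1 the lymphatic endothelial median fell from 1.38 to 0.17, and without TP1 control 2 the hepatocyte median rose from 0.40 to 2.64.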
